A study of Arabidopsis thaliana with 12 samples.

Results

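In leaves of Arabidopsis thaliana, 45 of 22746 probe sets (0.198%) were at least 4-fold higher in long days than in short days in both wild type and the cs26 mutant, at nearly the same level in both genotypes. The members were chosen by their measured group means on the log2 scale. Each had a long-day mean at least 2 above the short-day mean in wild type and again in cs26. In each photoperiod its cs26 mean lay within 0.5 (1.41-fold) of the wild-type mean. All 4 of these group differences chose the members, so their sizes are given below as a description, with no test. In the annotation used, 19 members name a single gene, 1 names several genes and 25 are unnamed. Probe sets that name 1 gene made up 42.2% of the members and 59.4% of all probe sets. The numerical limits were met by 47 probe sets, of which COR27 and AT1G07050 were left out by name. GI, also left out by name, did not meet them. No named plastid gene met them (0 probe sets), and unnamed probe sets could not be checked for a plastid origin.

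The study measured leaf RNA in 4 groups of 3 arrays, 1 sample per array, called biological replicates by the submitters. Wild type was accession Col-0, and cs26 was a single mutant line, SALK_034133, of the gene for a chloroplast S-sulfocysteine synthase. Long-day plants had 16 h of light and 8 h of dark and were harvested at 3 weeks. Short-day plants had 8 h of light and 16 h of dark and were harvested at 5 weeks. All grew on soil with Hoagland medium, with 20 °C during the light hours and 18 °C at night. Day length and plant age changed together and cannot be told apart, and the hour of harvest is not given in the sources used here.

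Plants read day length by comparing the light they receive with an internal daily clock, and GIGANTEA (GI) is a clock protein that links the clock to flowering. Transcripts under clock control rise and fall every day, with peaks that can shift with dawn, dusk and season. COR27 is a light- and cold-regulated gene whose protein acts on the clock. Leaf transcripts of starch turnover and of anthocyanin synthesis are also known to follow light and day length.

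Array medians lay between 5.42 and 5.51 on the log2 scale, and values ran from 3.12 to 14.27. No probe set names CS26 alone, so its transcript gave no check of the genotype labels. RCA, the activase of Rubisco and a marker of leaf mesophyll, read 13.03 to 14.06 over all 12 arrays, near the top of the scale. Replicate 2 of wild type in long days stood apart in the 25S ribosomal RNA control probe set (9.64, against 4.53 to 5.12 on the other 11 arrays). The array farthest from its group mean was replicate 2 of cs26 in short days, with an SD of 0.208 over all probe sets, compared with 0.104 to 0.155 on the others. Without the first of these arrays the rule gave 45 members, 43 of them the same. Without the second it gave 48, again with 43 the same.

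Of all probe sets, 246 were at least 4-fold higher in long days in wild type and 325 in cs26. Of these, 98 were shared, which is the start of the selection. The cs26 mean lay within 0.5 of wild type for 57 of the 98 in long days and for 78 in short days. The mirror rule, for short-day-high probe sets, gave 50 members out of 134 shared ones. In the plot of the differences in each genotype, the members lie along the diagonal because the rule places them there.

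**Figure D1:**
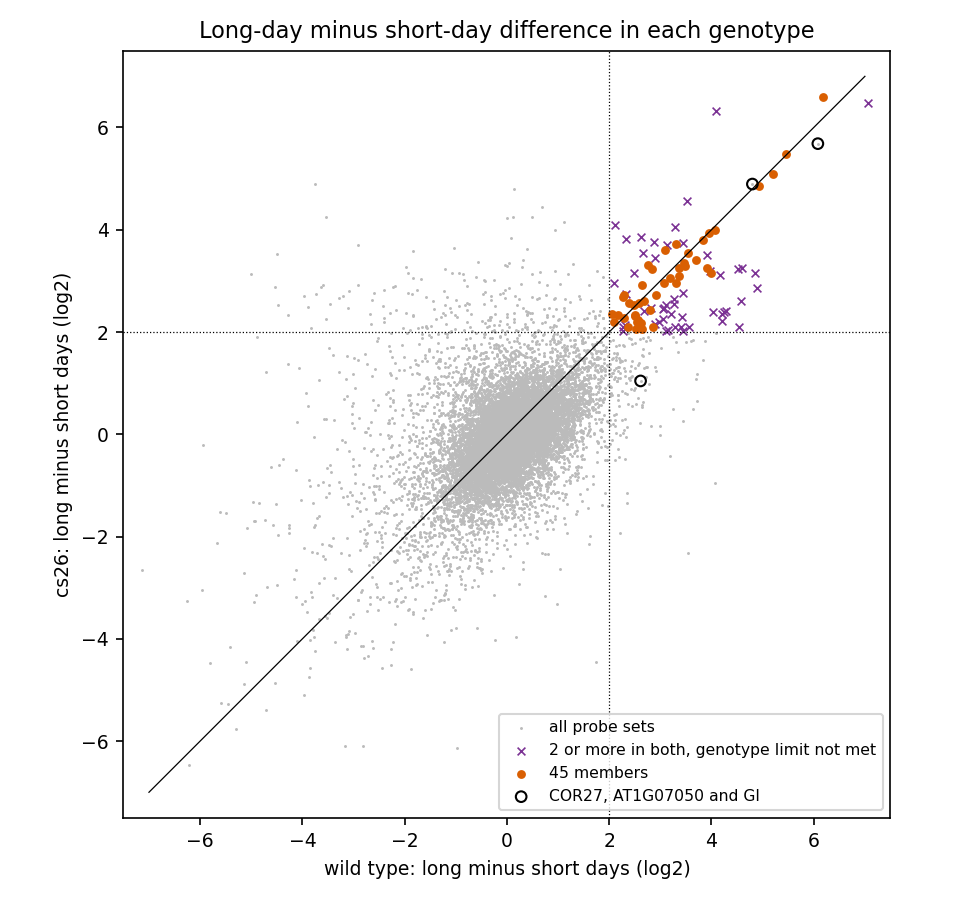
Difference between the long-day and short-day group means (log2) in wild type on the horizontal axis and in cs26 on the vertical axis, 1 point per probe set, with 3 arrays in each group. The 45 members (orange) lie above 2 on both axes and close to the line of equality, while 51 probe sets that pass 2 in both genotypes (crosses) missed the genotype limit, and GI is the circled point below the dotted line.

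Among the members, long-day levels exceeded short-day levels by 2.06 to 6.18 in wild type (median 2.84, or 7.18-fold) and by 2.06 to 6.60 in cs26 (median 2.93, or 7.60-fold). The long-day and short-day arrays did not overlap for any of the 45 in either genotype, which the rule nearly fixes. Over all probe sets, all long-day arrays lay above all short-day arrays for 28.1% in wild type and 27.3% in cs26. The smallest gap between the lowest long-day and the highest short-day array was 1.75 in wild type and 1.36 in cs26. The limma model, fitted to all 12 arrays, called all 45 higher in long days in wild type, where it called 23% of all probe sets in that direction. In cs26 it also called all 45, against 21.8% of all probe sets. The rule used those contrasts, so nothing is read from these counts. The median difference over all probe sets was 0.01 in both genotypes.

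Long-day means ran from 6.78 to 12.49 in wild type and from 6.55 to 12.49 in cs26, and no member (0 of 45) had a long-day mean below 5.45, the median of all values. In short days 20 of the 45 lay below that median in both genotypes, and the members' median short-day mean was 5.63 in wild type and 5.55 in cs26. RMA compresses differences near the background, so fold changes of these 20 may be understated. The median SD around the group means was 0.164 for the members and 0.139 over all probe sets.

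Members that were at least 16-fold higher in long days in both genotypes numbered 5, and none of them names 1 gene (0 of 19). The largest difference belonged to the unnamed probe set 263548_at. It read 12.33, 12.10 and 12.38 in wild type and 12.51, 12.57 and 12.40 in cs26 in long days. In short days it read 6.46, 5.54 and 6.26 in wild type and 5.90, 5.94 and 5.84 in cs26. The long-day arrays of both genotypes lay close together near the top of the scale, and the short-day arrays were near the median of all probe sets. These values amount to a 72.7-fold difference in wild type (6.18 ± 0.181, log2, SE, n = 3 arrays per group) and a 97.0-fold difference in cs26 (6.60 ± 0.181). The SE here and below is that of the limma model, which shares its estimate of spread over all 4 groups. It is therefore the same in both genotypes, although the short-day SD was 0.484 in wild type and 0.050 in cs26.

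The unnamed probe set 267364_at read 9.39 to 9.70 in wild type and 9.62 to 9.78 in cs26 in long days, and 3.89 to 4.41 and 4.07 to 4.44 in short days. Its difference was 5.45 in wild type and 5.47 in cs26, so these 2 differences lay 0.02 apart. The cs26 mean was 0.11 above wild type in long days and 0.09 above it in short days. In short days this probe set sat in the lowest part of the scale in both genotypes. The other 3 probe sets of this size had differences of 5.21, 4.93 and 4.07 in wild type and 5.09, 4.86 and 4.00 in cs26. Of these 3, 1 names several genes and 2 are unnamed.

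The annotation gives 3 of the 19 single-gene members a symbol with a described product, and the other 16 only a locus identifier. PDC2 (AT5G54960) encodes a pyruvate decarboxylase, the enzyme that turns pyruvate into acetaldehyde in ethanol fermentation. Its long-day arrays read 10.17, 10.00 and 10.31 in wild type and 9.81, 9.76 and 9.92 in cs26. Its short-day arrays read 7.23, 7.25 and 7.43 in wild type and 7.84, 7.58 and 7.78 in cs26. Wild type was thus the higher genotype in long days and the lower in short days, and the genotypes did not overlap. The difference between day lengths was 2.86 ± 0.103 in wild type (7.24-fold) and 2.1 ± 0.103 in cs26 (4.28-fold).

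LCR69 (AT2G02100, also PDF2.2) encodes a small cysteine-rich protein of the plant defensin family. It read 10.21, 9.92 and 10.04 in wild type and 10.59, 10.62 and 10.30 in cs26 in long days. In short days it read 7.29, 7.16 and 7.47 in wild type and 7.33, 7.01 and 7.26 in cs26. The cs26 arrays were above all wild-type arrays in long days, whereas the genotypes overlapped in short days. The difference between day lengths was 2.75 ± 0.124 in wild type (6.73-fold) and 3.30 ± 0.124 in cs26 (9.87-fold), the reverse order to PDC2.

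The scpl35 gene (AT5G08260) encodes a serine carboxypeptidase-like protein, of a family of secreted or vacuolar hydrolases and acyltransferases. It read 9.44, 9.62 and 9.68 in wild type and 9.18, 9.46 and 9.32 in cs26 in long days, with overlap. In short days it read 7.05, 7.08 and 7.08 in wild type and 7.19, 6.79 and 7.05 in cs26, again with overlap. Its difference was 2.51 ± 0.111 in wild type (5.70-fold) and 2.31 ± 0.111 in cs26 (4.96-fold).

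**Figure D2:**
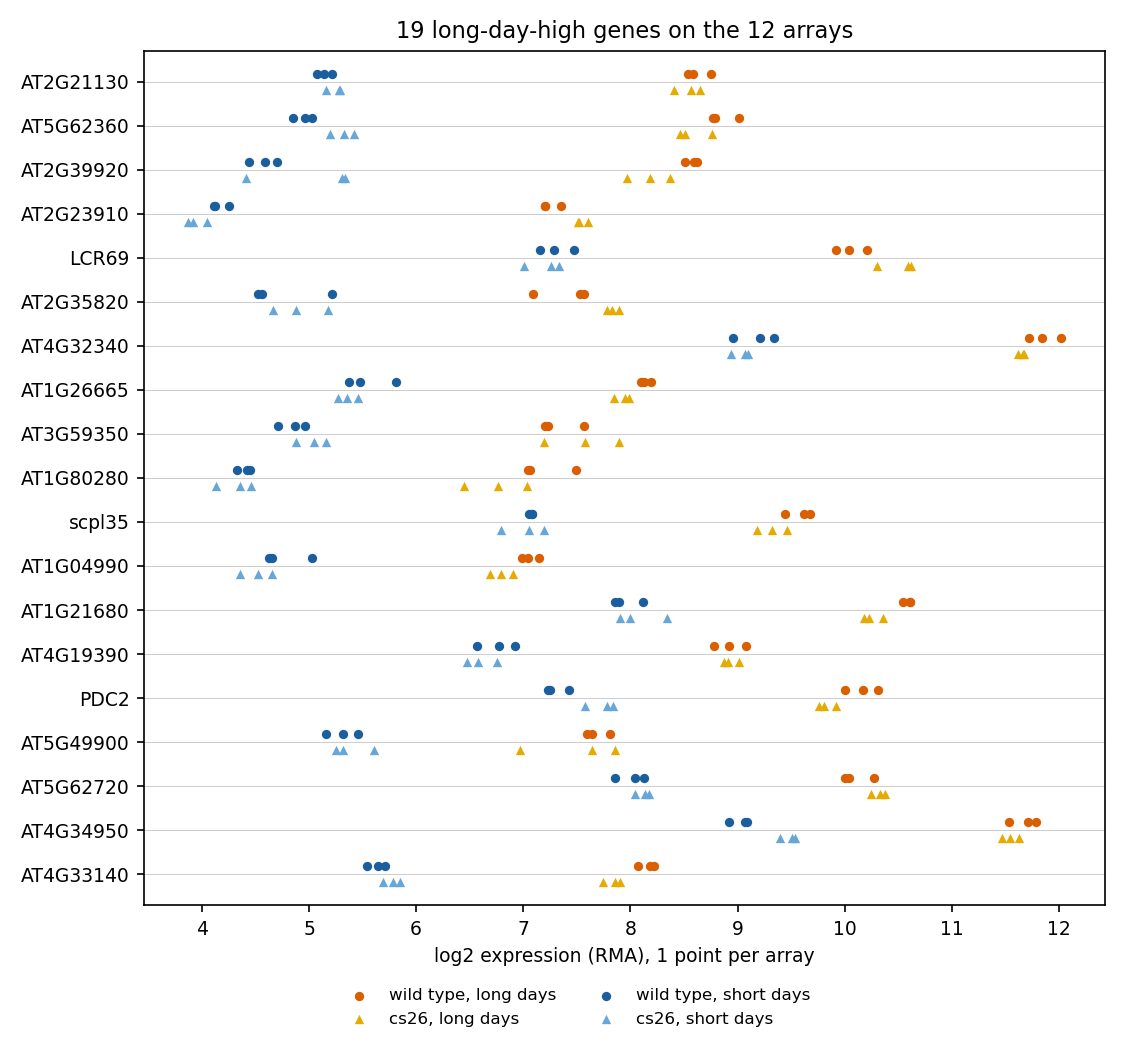
Log2 expression of the 19 single-gene members, 1 point per array and 3 arrays per group, with circles for wild type and triangles for cs26. In every row the long-day arrays (orange and yellow) lie to the right of all short-day arrays (blue), and the genotypes within a day length lie close together or overlap.

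Of the 16 genes known here by locus alone, 4 were at least 8-fold higher in long days in both genotypes, and over all members 18 were. AT2G21130 read 8.54, 8.58 and 8.75 in wild type and 8.41, 8.65 and 8.57 in cs26 in long days. In short days its arrays read 5.21, 5.14 and 5.07 and, in cs26, 5.29, 5.16 and 5.28. The genotypes overlapped in both photoperiods, with differences of 3.48 ± 0.089 (11.2-fold) in wild type and 3.30 ± 0.089 (9.85-fold) in cs26.

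AT2G39920 had the largest difference of the single-gene members in wild type, 4.00 ± 0.202 (16.0-fold), and 3.15 ± 0.202 (8.90-fold) in cs26. Its long-day arrays read 8.62, 8.59 and 8.51 in wild type and 8.37, 7.97 and 8.18 in cs26. In short days wild type read 4.59, 4.70 and 4.44, and cs26 read 5.34, 4.41 and 5.31. Replicate 2 of cs26, the array with the widest spread, was the low one, and without it the difference in cs26 was 2.85. AT2G39920 then no longer met the genotype limit.

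AT5G62360 read 8.77, 9.01 and 8.79 in wild type and 8.46, 8.76 and 8.51 in cs26 in long days, against 5.03, 4.96 and 4.85 and, in cs26, 5.42, 5.33 and 5.20 in short days. Its difference was 3.91 ± 0.104 (15.0-fold) in wild type and 3.26 ± 0.104 (9.58-fold) in cs26, and cs26 was the higher genotype in short days on every array. AT2G23910 went the other way. It rose from 4.11 to 4.25 in short days to 7.20 to 7.35 in long days in wild type, and from 3.87 to 4.05 to 7.51 to 7.60 in cs26. Its difference was 3.09 ± 0.081 (8.51-fold) in wild type and 3.60 ± 0.081 (12.1-fold) in cs26.

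Among the other 12 genes known by locus, differences ran from 2.09 to 2.80 in wild type and from 2.06 to 2.93 in cs26. AT4G32340 and AT4G34950 were the brightest. AT4G32340 averaged 11.86 in wild type and 11.65 in cs26 in long days, with 9.17 and 9.04 in short days. AT4G34950 averaged 11.68 and 11.55 in long days, with 9.03 and 9.48 in short days. The dimmest in long days were AT1G80280, at 7.20 and 6.75, and AT1G04990, at 7.06 and 6.79. AT4G33140 and AT4G34950 had the smallest difference of the members in cs26, 2.06 each.

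Of these 12 genes, 6 had cs26 means within 0.25 of wild type in both photoperiods, namely AT4G32340, AT1G26665, AT3G59350, AT4G19390, AT5G49900 and AT5G62720. With AT2G21130 they made up the 7 single-gene members that met this narrower limit, and over all members 18 met it. AT4G19390 had long-day means equal to 2 decimals (difference 0.00) and a short-day mean slightly lower in cs26 (-0.15). AT1G26665 read 8.10, 8.13 and 8.19 in wild type and 7.95, 7.85 and 7.99 in cs26 in long days. In short days it read 5.48, 5.81 and 5.37 and, in cs26, 5.46, 5.27 and 5.35. Its long-day arrays were all lower in cs26 while its short-day arrays overlapped, and the difference between day lengths was 2.59 in wild type and 2.57 in cs26. AT3G59350 had differences of 2.49 and 2.52, and AT5G62720 of 2.09 and 2.2.

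The genotypes were close by rule but not identical. Over the 45 members, cs26 minus wild type had a median of -0.19 in long days (-0.50 to 0.45) and of -0.08 in short days (-0.45 to 0.46). The long-day mean was lower in cs26 for 31 members and higher for 14, and the short-day mean was lower for 25 and higher for 20. The difference between day lengths was larger in wild type for 31 members and larger in cs26 for 14, among the single-gene members for 13 and 6. In the limma model, cs26 was called lower than wild type in long days for 7 of the 45 (11.8% of all probe sets) and higher for 2 (12.8% of all), 9 together (24.6% of all). In short days it was called lower for 3 (7.84% of all) and higher for 3 (8.89% of all), 6 together (16.7% of all). The genotype difference was called as changing between photoperiods for 8 members (27.6% of all), toward higher cs26 in short days for 5 (14.8% of all) and toward lower for 3 (12.7% of all). The rule limits all 3 contrasts, so nothing is read from these counts, and "unaffected by cs26" means here only that the means lie within 0.5.

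The members whose day-length difference differed most between genotypes lie toward the upper left or the lower right of the plot of genotype differences. AT2G39920, PDC2, AT5G62360 and AT4G34950 were lower in cs26 in long days (from -0.40 for AT2G39920 to -0.13 for AT4G34950) and higher in cs26 in short days (from 0.37 for AT5G62360 to 0.46 for AT4G34950). Their day-length difference was smaller in cs26 (cs26 minus wild type -0.84, -0.76, -0.65 and -0.59). LCR69 and AT2G23910 were higher in cs26 in long days (0.45 and 0.29) and lower in short days (-0.11 and -0.21). AT1G04990 was lower in cs26 by the same amount in both photoperiods (-0.27 and -0.26), and AT2G35820 was higher in both (0.44 and 0.14).

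**Figure D3:**
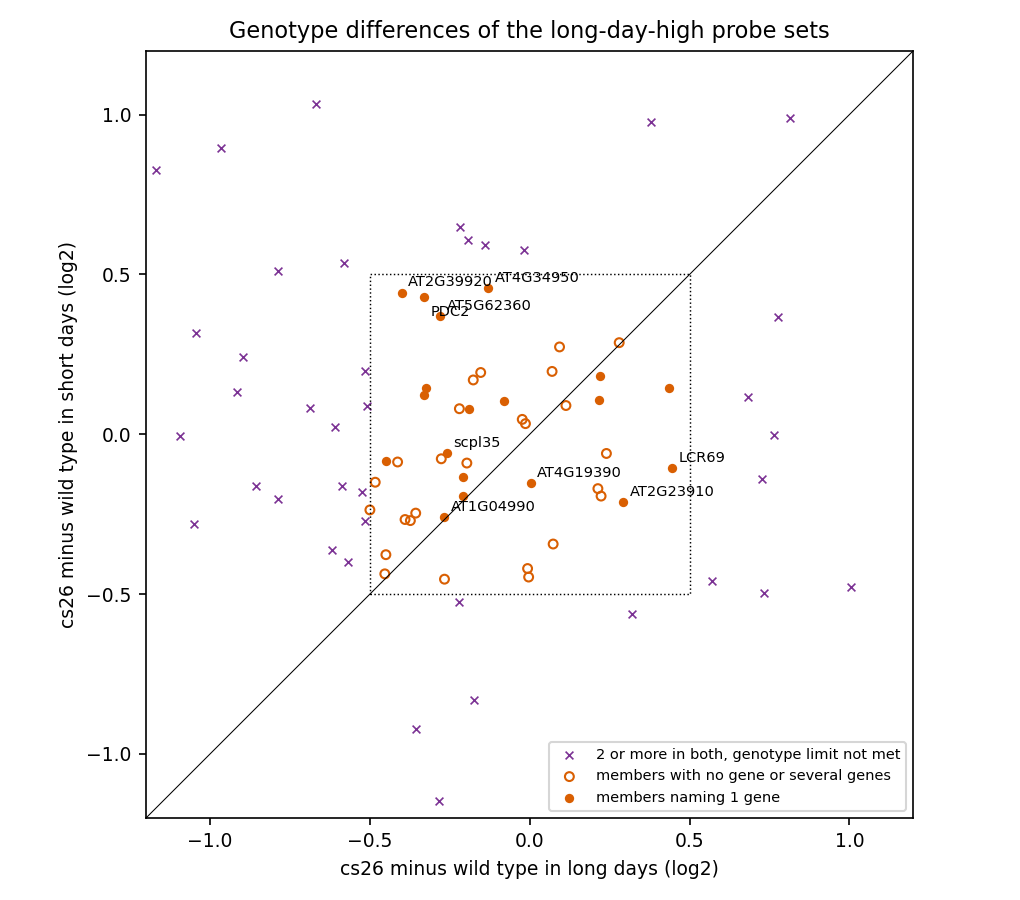
Difference between the cs26 and wild-type group means (log2) in long days on the horizontal axis and in short days on the vertical axis, for the probe sets at least 2 higher in long days in both genotypes. The 45 members fill the dotted square set by the limit of 0.5, with PDC2 and AT2G39920 at its upper left and LCR69 at its lower right, and 12 of the 51 probe sets outside the square lie beyond the axes at 1.2.

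At the limit of the day-length difference, AT4G33140 (2.06) and AT4G34950 (2.06) were the nearest single-gene members by their smaller difference, and WLIM1 (1.99) and AT2G33170 (1.91) lay just outside. At the genotype limit, AT4G34950 (0.46) and AT1G80280 (0.45) were the nearest by their larger genotype difference, and AT4G33980 and AT4G35750 lay just outside, both at 0.52.

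COR27 and AT1G07050, left out by name, met every numerical limit. COR27 was 4.80 higher in long days in wild type and 4.89 in cs26, and AT1G07050 was 6.08 and 5.68 higher. GI was 2.61 higher in wild type and 1.04 higher in cs26, below the limit there. Its cs26 arrays in short days read 5.27, 6.39 and 5.51, with replicate 2, the array with the widest spread, the high one.

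Over the members, each array lay close to its group. Their median deviation from the group mean was between -0.07 and 0.06 on the 12 arrays, against -0.01 to 0.01 over all probe sets. The lowest was replicate 2 of cs26 in short days (-0.07, with 18 of 45 members above their group mean), and the highest replicate 2 of cs26 in long days (0.06, with 30 of 45 above).

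Relatives of the 3 members with symbols were looked up after the members were known. Here and below, a gene counts as measured only where a probe set names it alone. Other genes may be among the 8730 unnamed probe sets. PDC2 is the only measured gene with a PDC symbol. Of 9 other measured genes of the LCR and PDF2 families, limma called 2 in wild type and 1 in cs26, each higher in long days (23% and 21.8% of all probe sets), and the median difference of the 9 was 0.07 and 0.09. LCR68 was 0.82 ± 0.101 higher in wild type (adjusted p = 2.95e-05) and 1.08 ± 0.101 higher in cs26 (adjusted p = 2.06e-06), well below the 2.75 and 3.30 of LCR69.

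Of 28 other measured serine carboxypeptidase-like genes, 8 were called higher in long days and 4 in short days in wild type (23% and 21.8% of all probe sets), and 7 and 4 in cs26 (21.8% and 21.5% of all). Their median was 0.08 in wild type and 0.02 in cs26. SCPL49 stood nearest to scpl35, at 2.82 ± 0.133 (adjusted p = 4.02e-09) in wild type and 2.48 ± 0.133 (adjusted p = 1.2e-08) in cs26. It missed the rule by its genotype difference in long days, with means of 10.33 in wild type and 9.81 in cs26.

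The genes on either side of the single-gene members were not used by the rule. Of 38 such neighbours, 21 had a probe set naming them alone. The others could not be matched, so whether any of them is an unnamed member is not known. None of the 21 was a member (0). In wild type 7 were called higher in long days and 1 in short days (23% and 21.8% of all probe sets), and in cs26 5 and 5 (21.8% and 21.5% of all). Their median difference was 0.06 in wild type and -0.02 in cs26, and the largest in wild type was 1.35, so none reached the limit of 2 there. AT5G54970, next to PDC2, was 1.04 ± 0.186 higher in wild type (adjusted p = 5.98e-04) and 1.81 ± 0.186 in cs26 (adjusted p = 5.13e-06). AT5G62350, next to AT5G62360, was 1.26 ± 0.0824 higher in wild type (adjusted p = 8.67e-08) and 0.25 ± 0.0824 in cs26 (adjusted p = 0.0247). AT4G32330, next to AT4G32340, was 1.35 ± 0.276 higher in wild type (adjusted p = 0.00154), and in cs26 it measured -0.64 (adjusted p = 0.0798). The neighbours of AT1G80280 went opposite ways in wild type, with AT1G80290 at 1.03 (adjusted p = 0.00109) and PPR596 at -0.70 (adjusted p = 3.01e-04).

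None of the 19 single-gene members was on lists of clock, flowering, B-box, cold, anthocyanin, starch, light-harvesting, growth, senescence, nutrient and defence genes. The other 26 members could not be matched to the lists, because the annotation gives them no single gene. Whether any of them is a listed gene is not known. The lists held 245 loci, of which 45 (list genes, none of them members) had a probe set naming them alone. In wild type 22 of these list genes were called higher in long days and 12 in short days (23% and 21.8% of all probe sets), and in cs26 16 and 18 (21.8% and 21.5% of all). The same shares over all probe sets apply to the counts of each list below. Their median difference was 0.16 in wild type and 0.00 in cs26. A difference of 2 or more was found for 11 in wild type, for 5 in cs26 and for 4 in both, which were COR27, AT1G07050, AT4G33980 and PWD. The plot of the lists sets the genotypes side by side, and for 27 of the 45 list genes the day-length difference was called as differing between genotypes (27.6% of all probe sets). The lists were chosen with earlier results of these data known, so nothing is read from these counts or from those of each list below.

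**Figure D4:**
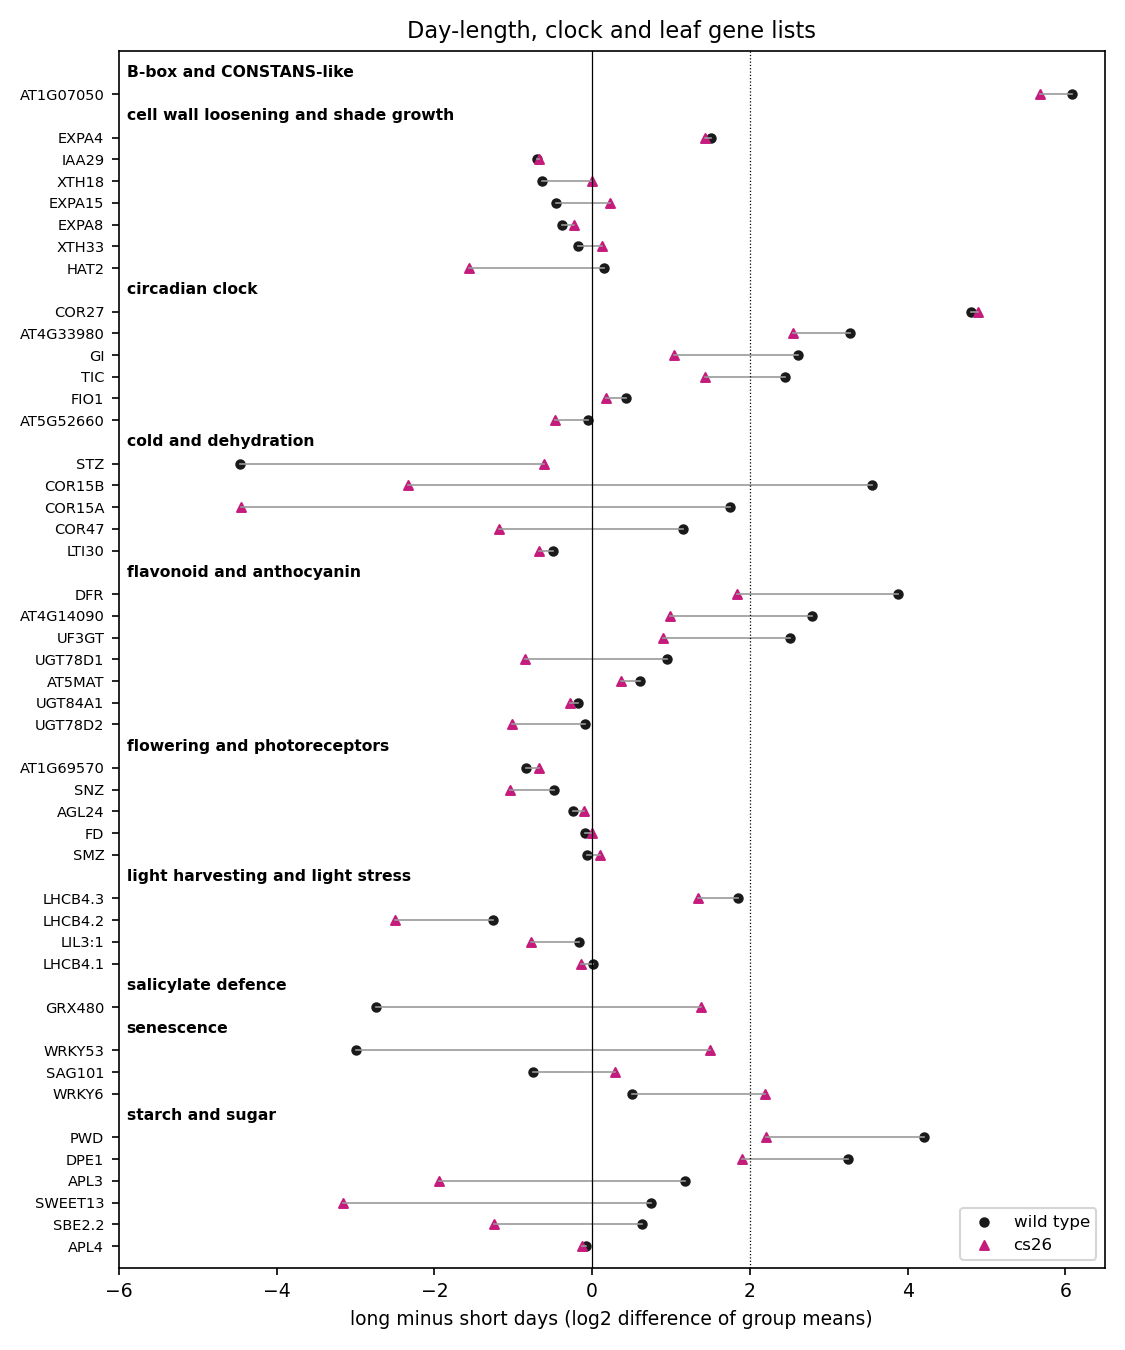
Difference between long-day and short-day group means (log2) of the 45 measured list genes in wild type (black circles) and cs26 (magenta triangles), from 3 arrays per group, with a line joining the genotypes and a dotted line at 2. COR27 and AT1G07050 have both symbols far to the right and close together, DFR and PWD have cs26 well to the left of wild type, and COR15B changes side.

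Of the 32 clock genes listed, only 6 had a probe set naming them alone. Of these 6, limma called 5 higher in long days in wild type, and in cs26 4 higher in long days and 1 in short days. AT4G33980 was 3.27 ± 0.128 higher in wild type (adjusted p = 7.17e-10) and 2.55 ± 0.128 in cs26 (adjusted p = 6.69e-09). TIC, a clock regulator, was 2.44 ± 0.323 higher in wild type (adjusted p = 5.36e-05) and 1.44 ± 0.323 in cs26 (adjusted p = 0.00288). The difference of these, -1.01, was not called (adjusted p = 0.13). In cs26 in short days TIC read 6.1, 7.54 and 5.9, so replicate 2, the array with the widest spread, raised that mean.

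Of 6 starch and sugar genes, 5 were called higher in long days in wild type, and in cs26 2 higher in long days and 3 in short days. PWD, a kinase of starch breakdown, was 4.2 ± 0.271 higher in wild type and 2.21 ± 0.271 in cs26. In cs26 in short days PWD read 6.96, 8.06 and 7.04, again with replicate 2 the high one. DPE1, a plastid enzyme of maltotriose metabolism, was 3.24 ± 0.138 higher in wild type and 1.91 ± 0.138 in cs26. Of 7 anthocyanin genes 5 were called higher in long days in wild type, and in cs26 4 higher in long days and 3 in short days. DFR, an enzyme late in anthocyanin synthesis, was 3.87 and 1.83 higher, and AT4G14090 2.79 and 0.98. Of 5 cold and dehydration genes 3 were called higher in long days and 2 in short days in wild type, and in cs26 all 5 higher in short days. COR15B, a cold-induced chloroplast protein, measured 3.54 in wild type and -2.33 in cs26, and the zinc finger factor STZ -4.47 and -0.61.

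Of 7 growth genes only EXPA4, an expansin, was called higher in long days, by 1.51 in wild type and 1.44 in cs26, and IAA29 was among those higher in short days (-0.70 and -0.67). Of 5 flowering and photoreceptor genes 2 were called, both higher in short days in each genotype, AT1G69570 (-0.83 and -0.67) and SNZ (-0.49 and -1.04). Of 4 light-harvesting genes, 1 was called higher in long days and 1 in short days in wild type, and 1 and 2 in cs26. LHCB4.3 was higher in long days (1.85 and 1.34) and LHCB4.2 in short days (-1.25 and -2.5). Of 3 senescence genes, 1 was called higher in long days and 2 in short days in wild type, and 2 higher in long days in cs26. WRKY53, a senescence regulator, measured -3.00 and 1.5, SAG101 -0.75 and, not called, 0.29, and WRKY6 0.50 (adjusted p = 6.6e-04) and 2.19 (adjusted p = 1.3e-09). GRX480, the only gene of the salicylate list that a probe set names alone, was higher in short days in wild type (-2.74). In cs26 it was higher in long days (1.38).

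Some of the 8 measured cell type markers were called between day lengths, as were 44.8% of all probe sets in wild type and 43.3% in cs26. RCA, of mesophyll, was not called in either genotype (0.43 in wild type and 0.09 in cs26). In bulk leaves, more cells of a type and more RNA per cell cannot be told apart. Of 6 listed genes of guard cells or their precursors, 3 were measured. Their summed log2 level in wild type was 20.15 to 20.81 in long days and 19.13 to 19.17 in short days. In cs26 their summed level was 21.35 to 21.60 and 18.63 to 19.20. Singly, their differences in wild type were 0.81, 0.45 and 0.07, the last not called and near the bottom of the scale (means 3.95 and 3.88). In cs26 they were, in the same order, 0.70, 1.52 and 0.41, all called. TRY is the only trichome marker that a probe set names alone. It read 5.95 to 6.48 in long days and 6.84 to 7.21 in short days in wild type. In cs26 it read 5.72 to 5.81 and 7.70 to 8.21. The vascular SWEET11 read 11.19 to 11.29 and 10.14 to 10.17 in wild type and 11.13 to 11.23 and 10.31 to 10.45 in cs26. AUR1, of dividing cells, overlapped between day lengths in both genotypes, and EXPA7, of root, did so in wild type but not in cs26. The part of cell makeup in the members' differences was not tested.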

How the data were processed

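The deposited values are log2 expression levels of 22810 probe sets on 12 Affymetrix ATH1 arrays, with 0 missing. Per the submitters' processing notes the authors used RMA and the affy package, so the values were background-corrected, quantile-normalised and summarised per probe set. The sources used here give no versions and do not say whether the arrays went through RMA together. The 64 control probe sets were left out. Of the 22746 others, 13513 name 1 gene, 503 several and 8730 none in the platform annotation, and 13436 of the 13513 were found in the TAIR10.1 gene table, used only for symbols and neighbours. Sample groups follow the labels' genotype and photoperiod.

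One model with a mean per group was fitted to all 12 arrays with limma 3.58.1 (lmFit, eBayes; R 4.3.3), and its p-values were Benjamini-Hochberg adjusted across all 22746 and called under 0.05. Adjusted p and SE in the text come from this model. Differences are long minus short days unless stated. On simulated arrays for the wild-type contrast, limma recovered 91 of 100 probe sets changed by 1 (log2) and 99 of 100 changed by 2. It made 11 false calls among the unchanged probe sets. Only these few probe sets were changed, while 44.8% were called in the data, so the simulated counts need not hold there. The contrasts between genotypes, the gene families and the neighbours were added after the data were seen.

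All 19 members with 1 gene are named. The rule for lists was up to 4 genes each, by size of the wild-type difference; 4 are named for the clock list, 3 for senescence and at most 2 for the others, a shortening made after the values were seen. Each list gene is given by its brightest probe set. Group limits, normalisation, dim and cross-hybridising probe sets, prior variance, array weights, a replicate block and single arrays left out were tried as alternatives. The members and lists were chosen with earlier results of these data known. No pairing of the samples by replicate number was seen: deviations of same-numbered arrays correlated between -0.31 and 0.162, and 2 of 18 pairs were above 0.1. With 3 arrays per group, low correlations cannot exclude a pairing. No sequences were used.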

Additional observations from a re-analysis of the deposited data

Results flagged for a closer look

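None of the groups has more than 3 arrays, so single arrays were not tested as outliers. For 36 genes named in the text that are not members, the model tested whether the long-day minus short-day difference differed between genotypes. It was called (adjusted p under 0.05) for 21 of the 36, against 27.6% of all probe sets. The list genes were named by the size of their wild-type difference, which enters this test, so nothing is read from the count. The values are cs26 minus wild type, in log2 units. For clock genes they were -0.71 (AT4G33980) and -1.57 (GI), for starch genes -2.0 (PWD) and -1.33 (DPE1), and for anthocyanin genes -2.04 (DFR) and -1.80 (AT4G14090). Among the cs26 short-day arrays, GI and PWD stood highest on replicate 2, the array with the widest spread. The cold genes gave -5.87 (COR15B) and 3.86 (STZ). For light harvesting and flowering they were -0.51 (LHCB4.3), -1.25 (LHCB4.2) and -0.55 (SNZ), and for defence and senescence 4.12 (GRX480), 4.50 (WRKY53), 1.04 (SAG101) and 1.68 (WRKY6). Among neighbours of members they were -1.0 (AT5G62350), -1.99 (AT4G32330), -0.52 (PPR596) and 0.77 (AT5G54970). The cell type markers TRY and AUR1 gave -1.45 and 0.54, AUR1 without a call between day lengths in either genotype.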

How the results depend on the processing

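The number of members moved with the limits that define them. It was 96 with a day-length limit of 1.5, 26 with 2.5, 18 with a genotype limit of 0.25 and 77 with a limit of 1, and 45 as reported. Repeated quantile normalisation gave 44, leaving out cross-hybridising probe set types 43, leaving out dim probe sets 45, and group medians 48, of which 38 were the same. Without 1 array at a time it was 44 to 48, with 41 to 45 of the original members kept. Of the 19 single-gene members, 6 were lost without at least 1 array, namely AT1G80280 (without any of 3), AT2G39920, LCR69 and AT2G35820 (without either of 2), and PDC2 and AT5G49900 (without 1). Group medians lost AT2G39920, LCR69 and PDC2. The cause was not tested. Differences of the 19 single-gene members moved by at most 0.305 over the 266 values recomputed without 1 array or after quantile normalisation. All kept their sign, which the rule's limit of 2 nearly fixes, so nothing is read from it.

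The model called 10186 probe sets between day lengths in wild type and 9849 in cs26. Without 1 array these were 8484 to 10746 and 8504 to 9945. With the replicate number as a block they were 9654 and 9387, and 2 of 18 same-numbered pairs correlated best with their own number. Every other setting tried left these counts within 1.5 times the reported ones. Depth does not apply to arrays, and 3 arrays per group and dim short-day signals limit the precision.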
